A study of Mus musculus with 6 samples.

Results

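The transcriptome of the normal mouse brain shortly before birth is described here from the 3 wild-type embryos of a study of BAHD1, a scaffold protein of repressive chromatin. The members were the 3 libraries labelled Bahd1-WT, out of 6 libraries in the series, with all 53801 genes of the deposited count table. Each library came from 1 whole brain, taken at E16.5 from an embryo of strain C57BL/6 with both copies of Bahd1 intact (Bahd1+/+) and no treatment. Polyadenylated RNA was sequenced, so RNAs without a poly(A) tail were mostly not captured, and no comparison of genotypes was made. The labels did not give the litters or the day of collection, and the 3 embryos are named Bahd1-WT replicates 1, 2 and 3 as in their titles.

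At this stage the mouse brain is near the peak of making neurons. Radial glia line the ventricles and divide, intermediate progenitors and young neurons leave the germinal zones, and axons grow towards their targets along guidance cues. Astrocytes and oligodendrocytes are only beginning to form, myelin is not yet laid down, microglia have entered from the yolk sac, and blood vessels, choroid plexus and meninges are in place. Red cells of the fetal liver line, with adult globins, have largely replaced the primitive red cells of the yolk sac, with embryonic globins.

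Replicates 1, 2 and 3 were read to a depth of 91.8, 81.6 and 91.3 (each times 1e6) counts. A level of 1 CPM, or 1 in 1e6 counts of an embryo, therefore stood for 81.6 to 91.8 counts, and 3 counts, taken as the limit that a count of 0 allows, stood for 0.0327 to 0.0368 CPM. Nuclear protein-coding genes took 92.3 to 95.6% of the counts. Genes of the mitochondrial chromosome took 6.15% (95% Wilson interval 6.14 to 6.15%) in replicate 1, 3.44% (3.44 to 3.45%) in replicate 2 and 2.85% (2.85 to 2.85%) in replicate 3, intervals that cover counting error only. Gm42418, which is annotated over ribosomal RNA sequence, took 0.12 to 0.25%. Replicate 1 stood apart in its dependence on base composition: with genes split into 10 equal groups by GC content, its median level was 0.53 (log2) above the mean of the other 2 embryos in the group of lowest GC content, and its median difference was -0.85 in the group of highest. Most deviations of gene lists and measures of spread are therefore given with and without a correction for GC content. The order of the embryos in a single gene is as scaled unless a corrected value stands beside it. The same holds for list medians and for numbers of genes highest or lowest in an embryo. All 3 embryos carried a Y chromosome by their transcripts, with Ddx3y at 95.2, 64.5 and 62.0 CPM and Xist, the RNA that coats an inactive X chromosome, at 0.58, 0.39 and 0.23 CPM in replicates 1, 2 and 3.

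Of the 53801 genes, 31081 had a count in at least 1 embryo, and 14008 reached 1 CPM in all 3, among them 13088 of the 21967 protein-coding genes (59.6%). Another 834 genes reached 1 CPM in only 1 or 2 embryos, with a median of 1.02 CPM over these genes, so most of them lay close to the limit. Outside the protein-coding genes, 245 of 5340 long intergenic non-coding RNAs and 152 of 2805 antisense RNAs reached 1 CPM in all 3, against 42 of 9148 processed pseudogenes. By mean level, 14469 genes lay at 1 CPM or more, 10207 at 10 or more, 2593 at 100 or more and 58 at 1000 or more. The 2593 genes at 100 CPM or more held 67.9% of the counts. The 100 most abundant genes of each embryo held 17.9, 15.2 and 14.7% of its counts in replicates 1, 2 and 3.

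By mean share of the library, the 4 most abundant genes were mitochondrial, although the fourth, mt-Nd5 (6808, 3440 and 2246 CPM), was above the first nuclear gene in replicate 1 alone. mt-Co1, a subunit of cytochrome c oxidase, stood at 18107, 10684 and 8626 CPM in replicates 1, 2 and 3, and mt-Cytb, the cytochrome b of complex III, at 13719, 8454 and 7024 CPM. Replicate 1 was highest in both, and the range of mt-Co1 was 2.24-fold as scaled and 1.61-fold after the GC correction. Of the nuclear genes, Map1b, which binds microtubules in growing axons, led in the mean with 4425, 4596 and 3304 CPM. It was followed by Dpysl3, a collapsin response mediator of growth cones, at 3050 ± 210 CPM (SD, n = 3), Nnat at 3037 ± 339 CPM, Dcx, the doublecortin of migrating neurons, at 2712 ± 708 CPM and the translation factor Eif4g2 at 2654 ± 171 CPM. The nuclear genes of highest share were thus mainly genes of the neuronal cytoskeleton and of translation, and the ranges over the embryos overlapped from Dpysl3 through to Eif4g2, all 4 below Map1b in the mean.

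Levels of different genes were compared per kilobase of exon (FPKM, fragments per kilobase of merged exons per 1e6 counts). On this scale Nnat was the most abundant nuclear protein-coding gene, at 1507, 1608 and 1867 FPKM in replicates 1, 2 and 3. Nnat, at chr2:157560078-157562522 (GRCm38, + strand), is an imprinted gene that encodes neuronatin, a small membrane protein of the developing brain. The beta-tubulin Tubb2b came next (1063 ± 213 FPKM), then the elongation factor Eef1a1 (1002 ± 137), the alpha-tubulin Tuba1a (909 ± 68.4), the chaperone Hsp90ab1 (787 ± 95.9), and the beta-tubulins Tubb5 (755 ± 229) and Tubb3 (725 ± 292). Every embryo of Nnat lay above every embryo of Tubb2b, whereas the ranges of Tubb2b, Eef1a1 and Tuba1a overlapped. The rest of the 20 highest genes held regulators of actin and growth cones, among them Tmsb10, Marcksl1, Gap43 (540 ± 13.1 FPKM) and Basp1. Levels of Eef1a1, Actb, the tubulins and other genes with many near-identical copies are uncertain, since their reads could be split among copies or left uncounted.

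**Figure D1:**
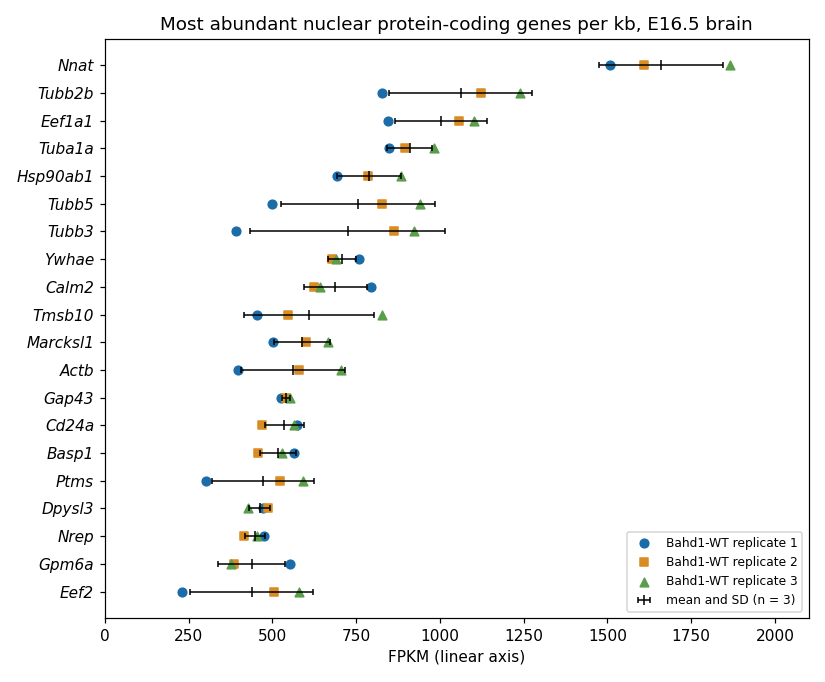
Levels of the 20 nuclear protein-coding genes of highest mean FPKM (horizontal linear axis), with 1 symbol for each of the 3 Bahd1-WT embryos and a black mark and bar for the mean ± SD. Nnat lies above all other genes in each embryo, and Tubb3 and Tubb5 are spread widely, with replicate 1 lowest at 390 and 498 FPKM, before any GC correction.

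Genes of young neurons were the most abundant of the marker lists. The 13 genes of young migrating neurons had a median of 390, 415 and 426 FPKM in replicates 1, 2 and 3, and all 13 reached 1 CPM in every embryo. The 12 genes of mature neurons had a median of 35.0, 27.4 and 25.6 FPKM, and the median over the genes at 1 CPM in all 3 embryos was 6.02 FPKM. Among the young neuron genes, Stmn2, a tubulin-binding stathmin of growth cones, was among the most even, at 266, 271 and 274 FPKM, while Dcx lay at 274, 206 and 163 FPKM, a 1.79-fold range of TMM-scaled CPM that was 1.31-fold after the GC correction. Among the mature genes, Syn1 of synaptic vesicles reached 63.8 ± 14.7 FPKM, Syp 58.1 ± 1.34, the neurofilament Nefl 54.3 ± 7.30, Rbfox3 (the nuclear antigen NeuN) 13.3 ± 3.36 and the late neurofilament Nefh 3.08 ± 0.90. In bulk tissue, fewer cells of a type and less RNA per cell cannot be told apart.

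Neurons of both main transmitters were present. Of the 9 glutamatergic genes all reached 1 CPM in every embryo, with Tbr1, a transcription factor of deep-layer cortical neurons, at 36.8, 43.8 and 39.4 FPKM and the vesicular transporter Slc17a6 at 45.4, 29.8 and 30.2 FPKM. Of the 12 GABAergic genes all reached 1 CPM as well. Somatostatin (Sst) led them at 65.9, 77.2 and 77.7 FPKM, then neuropeptide Y (Npy) at 55.6 ± 15.01 FPKM and Dlx1, a transcription factor of the ganglionic eminences, at 26.8 ± 5.54 FPKM. The synthesising enzymes Gad1 (21.8 ± 2.57 FPKM) and Gad2 (25.3 ± 4.45 FPKM) had overlapping ranges. Genes of monoamine neurons were low, with a list median of 1.54, 1.62 and 1.48 FPKM. Tyrosine hydroxylase (Th), the first enzyme of dopamine synthesis, lay at 1.30, 1.93 and 2.57 FPKM, and Tph2, the enzyme of serotonin synthesis, at 1.77, 1.37 and 1.5 FPKM. Reln, the signal of Cajal-Retzius cells that orders cortical layers, lay at 11.9 ± 2.16 FPKM.

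Germinal cells were represented at every step. All 12 radial glial genes reached 1 CPM in each embryo, with a median of 15.6, 17.6 and 20.4 FPKM. Fabp7, the fatty acid-binding protein of radial glia, led them at 465, 366 and 404 FPKM, well over the filaments Vim (46.1, 55.0 and 78.7 FPKM) and Nes (23.6, 26.4 and 40.5 FPKM). Pax6, a transcription factor of cortical radial glia, lay at 4.69 ± 0.82 FPKM. Eomes, which marks intermediate progenitors, lay at 14.3, 19.1 and 28 FPKM and Neurog2, which starts the neuronal programme, at 9.47, 10.7 and 19.9 FPKM. The 12 genes of dividing cells had a median of 4.70, 5.71 and 9.74 FPKM. Replicate 3 was the highest of the 3 embryos in 12 of these 12 genes on the TMM scale, against 33.5% of all genes with at least 10 counts, and its Cdk1, the kinase that starts mitosis, stood at 9.15 FPKM against 4.50 and 4.49. Replicate 1 was the highest in none of them.

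The astrocyte list had a median of 7.99, 11.4 and 11.3 FPKM in replicates 1, 2 and 3. The oligodendrocyte lineage had 3.31, 3.04 and 2.65 FPKM. Both were below radial glia in each embryo, but the astrocyte median was above that of dividing cells. Of the 13 genes of the oligodendrocyte lineage, 11 reached 1 CPM in every embryo. The early factor Olig1 (10.4, 13.8 and 10.9 FPKM) was above Olig2 (9.47, 9.11 and 7.74 FPKM) in every embryo, and Olig2 overlapped in range with the precursor receptor Pdgfra (9.01, 8.53 and 6.64 FPKM). Genes of myelin itself were lower and uneven: myelin basic protein (Mbp) lay at 7.44, 4.08 and 3.83 FPKM and Mag, an adhesion protein of myelin, at 0.63, 0.38 and 0.45 FPKM, both highest in replicate 1. All 9 astrocyte genes reached 1 CPM in every embryo. They were led by Sparcl1 at 143 ± 24.1 FPKM, while Gfap, the filament of mature astrocytes, lay at 1.43, 1.24 and 0.296 FPKM and the water channel Aqp4 at 6.26, 3.22 and 1.19 FPKM, both lowest in replicate 3.

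Of the 12 genes of microglia and macrophages, 11 reached 1 CPM in every embryo, with a median of 2.65, 3.84 and 4.49 FPKM. The complement genes C1qa and C1qb lay at 8.09 ± 2.39 and 9.34 ± 2.97 FPKM and the colony-stimulating factor receptor Csf1r at 3.20 ± 0.77 FPKM, while Tmem119, a marker of mature microglia, lay at 0.752 ± 0.310 FPKM. Endothelial genes had a median of 4.83, 6.68 and 6.37 FPKM. They included the glucose transporter Slc2a1 (20.5 ± 6.02 FPKM) and Cldn5 (18.9 ± 8.84 FPKM), both of the blood-brain barrier. The pericyte gene Rgs5 lay at 38.4 ± 6.32 FPKM. Choroid plexus was visible through Ttr, the transthyretin it secretes into cerebrospinal fluid, at 256, 345 and 625 FPKM, a 2.29-fold range of TMM-scaled CPM led by replicate 3, and through Otx2 at 8.94, 6.00 and 9.61 FPKM. Replicate 3 also held liver transcripts, described below, and the tissue behind its higher Ttr was not tested. Meningeal and connective tissue genes, led by the collagen Col3a1 (15 ± 3.2 FPKM), had a median of 6.50, 7.39 and 8.61 FPKM.

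**Figure D2:**
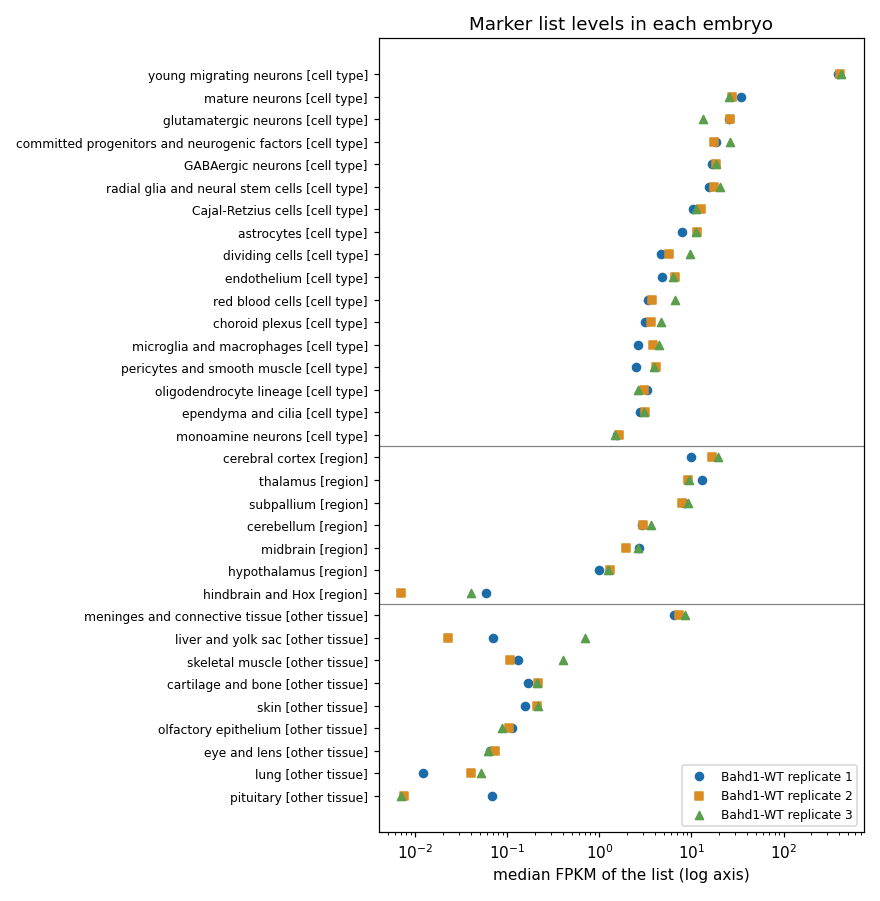
Median FPKM (log axis) of each marker list in each Bahd1-WT embryo, grouped as cell types, brain regions and other tissues and ordered by mean within a group. Young migrating neurons lie far above the other lists at 390 to 426 FPKM, most other-tissue lists lie under 1 FPKM, and the embryos part most in liver and yolk sac, hindbrain and Hox, and pituitary. These last lists have medians near the detection limit in some embryos.

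Genes of the forebrain, midbrain and cerebellar lists were found in each sample. All 11 cortical, 12 subpallial and 10 thalamic genes reached 1 CPM in every embryo. The cortical median was 9.78, 16.9 and 19.4 FPKM, with Neurod6 of pyramidal neurons at 234, 243 and 260 FPKM. For the subpallium, Meis2 lay at 43.2 ± 2.63 FPKM and Nkx2-1 of the medial ganglionic eminence at 6.46 ± 1.94 FPKM. For the thalamus, Tcf7l2 lay at 33.8 ± 2.02 FPKM and Gbx2 at 3.55 ± 0.28 FPKM. The hypothalamic list was low: 6 of 12 genes reached 1 CPM in all embryos, with Otp at 5.09 ± 0.84 FPKM, Avp, the vasopressin gene, at 0.982, 2.40 and 1.65 FPKM, and Oxt, the oxytocin gene, at 0.0203, 0.0685 and 0.0612 FPKM. The midbrain factor En1 lay at 4.54, 3.77 and 5.19 FPKM, and the cerebellar progenitor factor Atoh1 at 0.616, 0.439 and 0.424 FPKM. The cerebellar list was led by Nfix (58.4 FPKM) and by Zic1 (40.3 FPKM), which is also on the thalamic list. Its members Skor2 and Ptf1a lay at 0.58 and 0.061 FPKM.

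Hindbrain and Hox genes were scarce, and most were lowest in replicate 2. Only 1 of 15 genes of the hindbrain and Hox list reached 1 CPM in all 3 embryos, and the list median was 0.0580, 0.00703 and 0.0401 FPKM. The limit of 3 counts was 0.0368 CPM in replicate 2, which is 0.0368 FPKM for a gene of 1 kilobase and less for a longer gene. The median of replicate 2 rests on few counts per gene, so the size of its gap to the others is uncertain. Hoxa2, the most anterior Hox gene, lay at 0.258, 0.0967 and 0.222 FPKM, and Hoxb3 at 0.210, 0.0288 and 0.131 FPKM. Replicate 2 was lowest in both genes. Of the 12 genes of the list with at least 10 counts, 9 were lowest in replicate 2, against 25.98% of all genes with as many counts. Its median deviation over the list was -0.92 (log2), and -1.08 after the GC correction, against a median of 0.03 over all genes. Replicate 2 was also lowest in 8 of 12 midbrain and 7 of 10 cerebellar genes with as many counts. Its median deviations were -0.35 and -0.27 in these lists, and -0.55 and -0.39 after the GC correction. It was lowest in 7 of 12 subpallial, 4 of 10 thalamic, 5 of 11 hypothalamic and 1 of 11 cortical genes. Deviation here and in what follows means an embryo's log2 level (TMM-scaled CPM + 0.1) minus the mean of the other 2, over genes with at least 10 counts in all.

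Genes of tissues outside the brain were near the detection limit with some exceptions. Of 8 lung genes, 1 reached 1 CPM in all embryos, the forebrain factor Nkx2-1 that lung shares, and of 10 pituitary genes 1 did. The cartilage list reached 4 of 9, led by the fibrillar collagens Col11a1 (2.85 ± 0.08 FPKM) and Col2a1 (1.17, 2.47 and 3.70 FPKM), and the skin list 3 of 8. Eye and lens (2 of 10) and olfactory epithelium (2 of 6) rested on genes that brain also uses, with Gnal at 23.0 ± 6.05 FPKM while the olfactory marker protein Omp lay at 0.0791 ± 0.0068 FPKM. Skeletal muscle and liver genes were higher in replicate 3. The muscle list had a median deviation of 1.45 in replicate 3 (1.13 after the GC correction), with the embryonic myosin Myh3 at 65, 50 and 276 counts. The liver and yolk sac list had a median deviation of 2.97 in replicate 3 (2.82 after the GC correction). All 9 of its genes with at least 10 counts were highest there as scaled, and 8 after the correction. Of all genes with as many counts, 33.5% were highest in replicate 3 as scaled. Its summed level was 2.84, 2.61 and 45.6 CPM in replicates 1, 2 and 3, and the defining gene Serpina1a had 0, 0 and 5 counts.

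Blood was part of each sample, and globin transcripts differed in amount between embryos. The adult beta-globin gene Hbb-bs lay at 80.5, 240 and 339 CPM in replicates 1, 2 and 3, the adult alpha-globin Hba-a1 at 15, 54.1 and 69.0 CPM, and Alas2, the first enzyme of heme synthesis in red cells, at 5.93, 6.88 and 10.2 FPKM. Replicate 1 was lowest and replicate 3 highest in each of these. The embryonic beta-like Hbb-y had 9, 18 and 182 counts and the embryonic alpha-like Hba-x 3, 13 and 109 counts, and Hbb-bh1 was counted only in replicate 3, with 5 counts. Per kilobase and within an embryo, Hbb-bs exceeded Hbb-y by 9.40, 9.81 and 7.13 (log2) and Hba-a1 exceeded Hba-x by 9.05, 8.62 and 6.06, so both ratios were lowest in replicate 3. Over the 11 red cell genes with at least 10 counts the median deviation was -1.73 in replicate 1 and 1.2 in replicate 3, and -1.08 and 0.86 after the GC correction. All the hemoglobin genes together took 0.0122, 0.0366 and 0.0528% of the counts. Reads of Hba-a1 and Hba-a2, and of Hbb-bs and Hbb-bt, may be split between near-identical copies or left uncounted.

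For 5 globin genes the 120 bases before the RefSeq start (GRCm38.p6) are shown, 5′ to 3′ on the strand of the gene. These genes were taken since they differ in timing, and since each was lowest in replicate 1 and highest in replicate 3. Hbb-bt, with no level given above, had a mean of 60.4 FPKM. Capitals mark matches on either strand to CCAAT, a common element of promoters, to CACCC, a motif known from globin promoters, and to ATATAA as well as ATAAAA, which resemble the TATA box. In Hbb-bt the 5 letters ATTGG are the first motif read on the other strand, and 2 matches lie side by side.
Hbb-bs, chr7:103827929-103828048, - strand: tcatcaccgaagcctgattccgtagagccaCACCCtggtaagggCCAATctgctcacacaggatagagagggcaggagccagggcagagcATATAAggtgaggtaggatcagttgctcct
Hbb-bt, chr7:103813924-103814043, - strand: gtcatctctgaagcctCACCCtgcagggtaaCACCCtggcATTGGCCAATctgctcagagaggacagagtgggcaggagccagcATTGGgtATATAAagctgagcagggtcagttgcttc
Hbb-y, chr7:103853208-103853327, - strand: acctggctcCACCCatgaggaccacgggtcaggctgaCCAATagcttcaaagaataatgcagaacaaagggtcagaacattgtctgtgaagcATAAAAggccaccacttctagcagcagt
Hba-a1, chr11:32283552-32283671, + strand: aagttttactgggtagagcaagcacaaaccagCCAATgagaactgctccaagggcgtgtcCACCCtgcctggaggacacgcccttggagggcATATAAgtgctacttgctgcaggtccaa
Hba-x, chr11:32276480-32276599, + strand: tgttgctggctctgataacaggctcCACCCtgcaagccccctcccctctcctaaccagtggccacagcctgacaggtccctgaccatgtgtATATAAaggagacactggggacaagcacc

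CACCC was present in all 5 windows, against 31.7% of 32851 promoter windows of the same length. CCAAT was present in 4, all but Hba-x, against 21.3%. ATATAA was present in 4, all but Hbb-y, against 4.47%, and ATAAAA in Hbb-y alone, against 8.30%. These are matches of letters only, and some gene models start further upstream than the RefSeq start used here.

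Genes of transmitter receptors were widely expressed. Of 23 glutamate receptor genes 22 reached 1 CPM in every embryo, led per kilobase by the AMPA receptor subunits Gria2 (52.2, 42.4 and 30.2 FPKM) and Gria1 (39.8, 43.4 and 32.8 FPKM). Of the NMDA receptor subunits, the fetal Grin2b lay at 27.8, 26.5 and 13.5 FPKM and Grin2a, which rises after birth, at 0.858, 0.584 and 0.362 FPKM. Within each embryo Grin2b exceeded Grin2a by 5.02, 5.51 and 5.22 (log2). All 15 genes of GABA receptors and chloride transporters reached 1 CPM, with the alpha subunit Gabra3 at 42.0 ± 12.3 FPKM. Per kilobase of merged exon, the chloride exporter Slc12a5, which makes GABA inhibitory as neurons mature, was above the importer Slc12a2 in each embryo. The log2 ratio of importer to exporter was -0.46, -1.28 and -0.76. Its mean of -0.84 shrank to -0.40 by the longest transcript and to -0.28 with no division by length. The order in single embryos is given for merged exons alone. Replicate 1 was the highest embryo in 13 of 22 glutamate receptor genes with at least 10 counts and in 12 of 15 of the GABA list, against 38.8% of all genes with as many counts, and no gene of either list was highest in replicate 3.

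In each of 24 pairs of related genes, chosen as switches of development or as isoforms, the same gene was higher in all 3 embryos. It was the first gene in 20 pairs and the second in the other 4. The order of names within a pair was set by hand, so that split is not a result. With 3 embryos a sign-flip permutation test of a pair cannot give a p under 0.25, so the ratios are given with their spread alone. Dcx exceeded Rbfox3 by 4.0 ± 0.56 (log2), Fabp7 exceeded Gfap by 8.99 ± 1.24, the beta-tubulin Tubb3 exceeded Tubb4a by 2.10 ± 0.46, and Sox11 of new neurons exceeded the progenitor factor Sox2 by 2.06 ± 0.10. The neuronal BAF subunit Actl6b exceeded its progenitor counterpart Actl6a by 1.44 ± 0.22, and Ptbp2, the splicing repressor of neurons, exceeded Ptbp1 by 1.85 ± 0.81. Dnmt3a exceeded the other de novo DNA methyltransferase, Dnmt3b, by 4.10 ± 0.12, among the steadiest ratios. The 4 pairs with the second gene higher were Slc12a2 to Slc12a5 (-0.84 ± 0.41), the BAF scaffold subunits Smarcc1 to Smarcc2 (-1.57 ± 0.24), Gad1 to Gad2 (-0.21 ± 0.10) and Map2 to Mapt (-0.82 ± 0.42). The last 2 of these turned with the measure of length: by the longest transcript the mean ratio was 0.85 for Gad1 to Gad2 and 0.06 for Map2 to Mapt. The size of other ratios depended on it too, and that of Slc12a2 to Slc12a5 was -0.40 by the longest transcript and -0.28 with no length. With no division by length, the ratio was 5.81 for Dnmt3a to Dnmt3b, 4.08 for Sox11 to Sox2, 2.80 for Ptbp2 to Ptbp1, 5.12 for Dcx to Rbfox3 and 7.23 for Fabp7 to Gfap.

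Genes of the 4 signalling pathways were mostly above 1 CPM. All 20 Notch pathway genes reached 1 CPM in every embryo. Among them the ligand Dll1 lay at 3.13, 4.95 and 6.46 FPKM, the receptor Notch1 at 2.29, 5.65 and 5.69 FPKM and the target Hes5 at 1.51, 2.82 and 3.70 FPKM, each lowest in replicate 1. The median deviation of this list in replicate 1 was -0.70, and -0.10 after the GC correction. Of 26 Wnt genes 25 reached 1 CPM, from the effector Ctnnb1 at 181 ± 24.1 FPKM and the receptor Fzd3 at 25.6 ± 4.66 FPKM to the ligands Wnt7b (11.1 ± 4.32 FPKM) and Wnt3a (0.127 ± 0.078 FPKM). Of 14 Hedgehog genes 12 did, with the co-receptor Cdon at 9.12 ± 1.51 FPKM, the receptor Ptch1 at 5.92, 6.09 and 5.81 FPKM, and the ligand Shh at 1.26, 0.788 and 1.4 FPKM, whereas Dhh and Ihh stayed at 0.0781 and 0.0300 FPKM. Of 20 genes of the FGF pathway 17 did, with the intracellular Fgf13 at 52.3 ± 13.6 FPKM and the receptor Fgfr1 at 10.3 ± 3.15 FPKM, above the ligands Fgf15 (3.45 ± 0.59 FPKM) and Fgf8 (0.0610 ± 0.0245 FPKM).

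All 36 axon guidance genes reached 1 CPM in every embryo, with a median of 12.1, 12.7 and 11.6 FPKM. The ligand Efnb3, which stops axons at the midline, was the highest at 68.0, 91.5 and 78.2 FPKM. Robo2 (28.8 ± 3.61 FPKM) and Robo1 (24.9 ± 2.49 FPKM), receptors for Slit repellents, were higher than the ligands Slit1 (9.91 ± 3.07 FPKM) and Slit2 (2.40 ± 0.13 FPKM), and the ephrin receptor Epha4 was even across embryos at 27.2, 27.3 and 26.8 FPKM. Of 15 tubulin genes 13 reached 1 CPM, and they spanned from 1063 FPKM for Tubb2b to 0.0831 FPKM for Tubb1, the beta-tubulin of platelets. Among the long non-coding RNAs, the imprinted H19 was the highest per kilobase at 100, 126 and 162 FPKM, and Meg3 came next at 75.3, 83.9 and 57.2 FPKM. The nuclear RNA Malat1 lay at 36.9, 35.6 and 30.3 FPKM and Neat1 at 0.156 ± 0.037 FPKM. Polyadenylated RNA was selected, which bears on the level of non-coding RNAs with weak tails.

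Bahd1 itself, at chr2:118900377-118924528 (GRCm38, + strand), lay at 4.60, 8.15 and 8.15 FPKM, or 1971, 3102 and 3470 counts. The low value of replicate 1 went with the GC dependence of that library: the spread of highest to lowest was 1.71-fold, and 1.06-fold after the GC correction. All 16 genes of repressors around BAHD1 reached 1 CPM in every embryo. The deacetylase Hdac2 was the highest at 104 ± 17.4 FPKM and exceeded Hdac1 (8.46 ± 2.31 FPKM) by 3.65 ± 0.45 (log2). The HP1 gene Cbx5 lay at 68.5 ± 9.999 FPKM, the corepressor Trim28 at 57.3 ± 21.3, the methyltransferase Setdb1 at 18.3 ± 1.10, and the partners Mier1, Mier2 and Mier3 at 5.38 ± 0.95, 4.83 ± 1.93 and 9.31 ± 1.21 FPKM.

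Across genes, the embryos were ordered alike but were not equally close. Over the 14469 genes with a mean of 1 CPM or more, Spearman's rho across genes was 0.990 between replicates 2 and 3, 0.975 between 1 and 2, and 0.967 between 1 and 3, values that describe the profiles and rest on genes that are not independent. The median fold between 2 embryos was 1.15 for replicates 2 and 3, against 1.27 for 1 and 2 and 1.32 for 1 and 3. The biological coefficient of variation, the spread between embryos beyond counting error, was 0.246 over all genes with edgeR's common dispersion, 0.178 after the GC correction and 0.167 without replicate 1. By level it was 33.7% under 0.1 CPM, 20.03% between 100 and 1000 CPM and 23.4% above. Counting error was 5.58% for a typical gene between 1 and 10 CPM and 0.816% between 100 and 1000 CPM, so above 1 CPM the spread between embryos far exceeded the counting error. For a single gene of 10 CPM or more, the coefficient of variation had a median of 17.2%, and 10.8% after the GC correction.

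A range of 2-fold or more between the highest and the lowest embryo was found for 1710 of 14469 genes (11.8%). Replicate 1 was the odd embryo in 1294 of them, low in 1115, and those 1115 had a median GC content of 58.3% against 49.0% over all genes. Replicate 3 was the odd embryo in 351 and replicate 2 in 65. After the GC correction 455 genes (3.14%) had such a range, and the odd embryo was replicate 1 in 184, replicate 3 in 234 and replicate 2 in 37. Between replicates 2 and 3 alone, 121 genes differed by 2-fold or more. Across genes the deviation of replicate 1 followed GC content with a Spearman's rho of -0.81, and the deviation of replicate 3 followed exon length with a rho of -0.38, or -0.30 after the GC correction, so that short genes were relatively high in replicate 3. For replicate 2 the rho with length was 0.08, and 0.38 after the GC correction. These values are tied to each other, since each deviation is taken from the mean of the other embryos. Replicates 1 and 3 were of nearly equal depth.

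**Figure D3:**
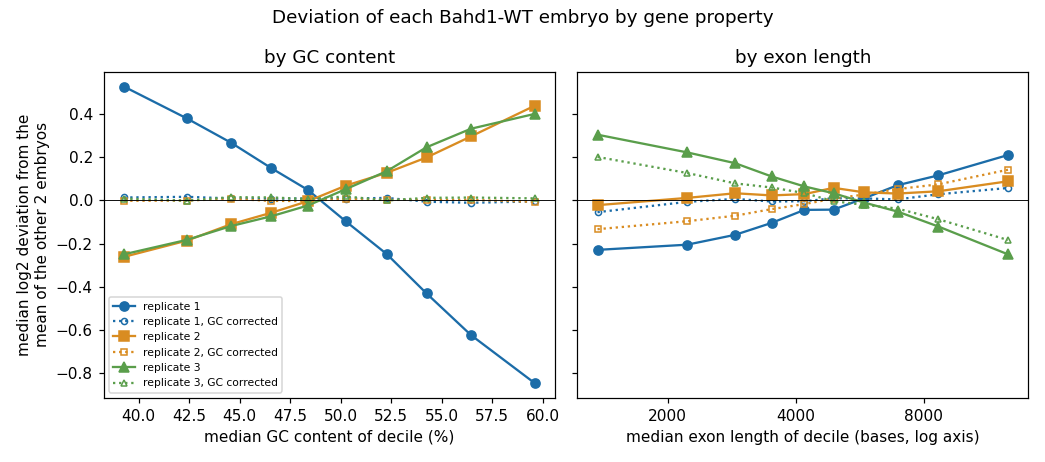
Median log2 deviation of each Bahd1-WT embryo from the mean of the other 2, by deciles of genes in GC content (left, %) and in exon length (right, bases, log axis), as scaled (filled, solid) and GC corrected (open, dotted). Replicate 1 falls from 0.53 to -0.85 with GC content while both other embryos rise, and in the right panel replicate 3 falls with length from 0.30 to -0.25. The deviations of a gene cancel over the embryos by construction, so the curves partly mirror each other.

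The protein-coding genes with the largest ranges at 10 CPM or more were of a few kinds. The widest was the ribosomal protein gene Rpl36, at 5.70, 30.2 and 33.1 TMM-scaled CPM in replicates 1, 2 and 3, a 5.80-fold range that was 3.13-fold after the GC correction. Rplp1 (4.96-fold), Rps9 (4.0-fold) and Rpl18 (3.64-fold) were of the same kind, all lowest in replicate 1, and their reads can be split with many pseudogene copies. Aqp4 came second with 40.4, 20.03 and 7.18 CPM, a 5.62-fold range that was 4.18-fold after the correction. The 4 adult globin genes had ranges of 3.91- to 4.45-fold. Others were GC-rich genes such as H1fx (71.3% GC), whose 4.57-fold range was 1.54-fold after the correction, Mif, Timm13 and Uqcr11. At the other end, Nfx1, a transcription factor, lay at 140.0, 139.7 and 139.9 CPM, a 1.002-fold range, followed by Bcl7c, Dclre1b, Tcf12 and Cdk6. Such genes are the extreme of 10023, and after the GC correction the ranges of these 5 were 1.04- to 1.21-fold.

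Genes often used as a reference were not equally steady. Ywhaz lay at 485, 458 and 481 TMM-scaled CPM, a coefficient of variation of 3.14%, and Sdha and Tbp had 8.63 and 8.94%. Gapdh had 17.2%, Actb 24.6%, Hprt 25.3%, Ubb 44.6% and Rplp0 47.1%. The GC correction brought Hprt to 7.74%, B2m from 21.8 to 3.88% and Tfrc from 21.6 to 1.23%, all 3 of low GC content, and left Rplp0 at 38.6%. For Ywhaz it raised the value to 6.64%.

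Among the gene lists, several stood on opposite sides of the other embryos in replicates 1 and 3. The deviations of a gene over the embryos cancel by construction, so a high value in an embryo forces a low value elsewhere. Median deviations over all genes were between 0.00 and 0.03 in the 3 embryos. GABA receptors and chloride transporters stood at 0.74 in replicate 1 and -0.62 in replicate 3, glutamate receptors at 0.54 and -0.51, and mature neurons at 0.35 and -0.54. Astrocytes stood on the same side at 0.38 and -0.49, as did the oligodendrocyte lineage at 0.24 and -0.44. Radial glia stood on the other side at -0.28 and 0.37, and microglia at -0.63 and 0.29. With the GC correction radial glia had -0.04 and 0.33, and microglia -0.12 and 0.08. GABAergic neurons stood at -0.18 and 0.14, and at 0.23 and -0.19 after the GC correction. Dividing cells stood at -0.28 and 0.51, and committed progenitors at -0.19 and 0.55. After the GC correction the values were 0.47 and -0.53 for GABA receptors, 0.37 and -0.42 for glutamate receptors, 0.52 and -0.62 for mature neurons, and -0.45 and 0.63 for dividing cells. They were 0.34 and -0.46 for astrocytes and 0.75 and -0.65 for the oligodendrocyte lineage. For committed progenitors in replicate 3 the value went to 0.25. The median of young migrating neurons differed little, at 0.02, 0.00 and 0.05, but its genes went both ways. Replicate 1 was the highest in 6 and the lowest in 6 of the 13 genes. Microglia (-0.63 to -0.12), pericytes (-0.55 to -0.05) and the Notch pathway lost most of their deviation in replicate 1 with the correction.

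**Figure D4:**
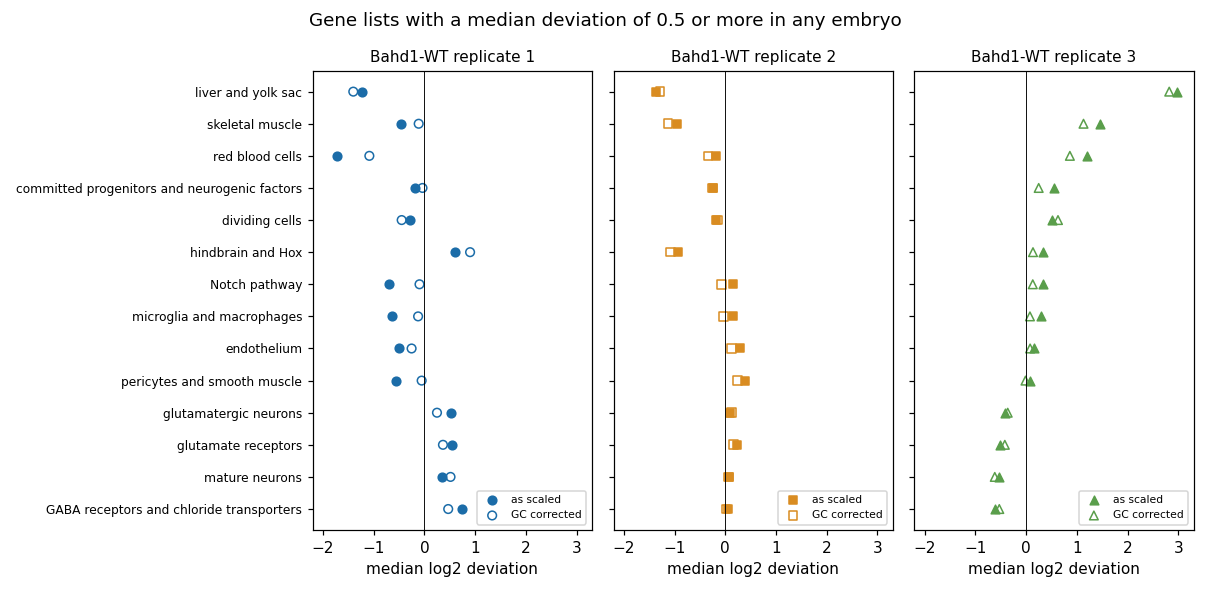
Median log2 deviation of each Bahd1-WT embryo from the mean of the other 2 (horizontal axis, 1 panel per embryo) for the 14 gene lists at 0.5 or more in either direction in any embryo, as scaled (filled) and after the GC correction (open). Liver and yolk sac, skeletal muscle and red blood cells lie to the right in replicate 3, hindbrain and Hox to the left in replicate 2, and the receptor and neuron lists to the right in replicate 1.

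A few genes were found in essentially 1 embryo. By a rule chosen after the values were seen, 26 genes had at least 50 counts and a level 10-fold or more above both other embryos, or the reverse. Of the 6 protein-coding genes high in replicate 1, 4 are known from mature brain cells. Mobp, a myelin protein at chr9:120149707-120181484 (+ strand), had 1573, 17 and 23 counts in replicates 1, 2 and 3, and Mog, a protein of the outer face of myelin, had 73, 0 and 0. Gabra6, the GABA receptor subunit of cerebellar granule cells, had 194, 6 and 6 counts, and Etnppl, a lipid enzyme of mature astrocytes, 104, 3 and 4. The other 2 were Capn11, a calpain protease, with 253, 8 and 9 counts, and Gm12166. Relative to the nearer of the other embryos, Mobp was 72.5-fold higher, Gabra6 29.7-fold, and Mog at least 22.4-fold. The myelin gene Mbp was less far apart, at 5781, 2819 and 2962 counts. Of the pituitary hormones, Gh had 25, 0 and 0 counts in replicates 1, 2 and 3, and Prl 13, 1 and 0. The pituitary list as a whole had a median deviation of 0.02 in replicate 1, and 0.78 after the GC correction. Of its 6 genes with at least 10 counts, replicate 1 was highest in 3 and lowest in 3 as scaled, and highest in 5 after the correction. The summed level of the list was 5.69, 6.52 and 8.76 CPM.

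The 6 protein-coding genes high in replicate 3 encode proteins that liver secretes, some of them made by yolk sac or gut as well. Afp, the fetal alpha-fetoprotein, at chr5:90490737-90508907 (+ strand), had 20, 3 and 2340 counts, its neighbour albumin (Alb) 16, 5 and 384, and apolipoprotein B (Apob) 29, 22 and 636. Apoa4 had 0, 0 and 112 counts, Ahsg 3, 0 and 76, and Kng1 0, 0 and 57. Afp was 110-fold higher than in the nearer embryo and Apoa4 at least 32.4-fold. The embryonic globins, also high in this embryo, are described above. No protein-coding gene met the rule in replicate 2. Other tissue in the sample and reads from another library cannot be told apart in this table as the origin of these counts in either embryo, and neither was tested.

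The other 14 of the 26 genes were pseudogenes, found high or low in each of the 3 embryos. They made up 6.03% of the 232 pseudogenes with at least 50 counts in any embryo, against 0.0846% for the 12 among 14178 protein-coding genes. Gm1821, at chr14:46084028-46085000 (+ strand), had 0, 1 and 3102 counts in replicates 1, 2 and 3, and Gapdh-ps14, at chr8:41608668-41609669 (- strand), had 3, 6 and 1780. Gm4962 had 770, 552 and 0 counts, Spcs2-ps 230, 0 and 237, and Gm18541 5, 539 and 663. In each of these the counts were present or near 0 with little in between. Except for Spcs2-ps and Vdac3-ps1, annotated as unprocessed, the 14 were processed pseudogenes. Processed pseudogenes are copies of messenger RNA, near-identical to their source, so reads can be placed on them by a few base differences.

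**Figure D5:**
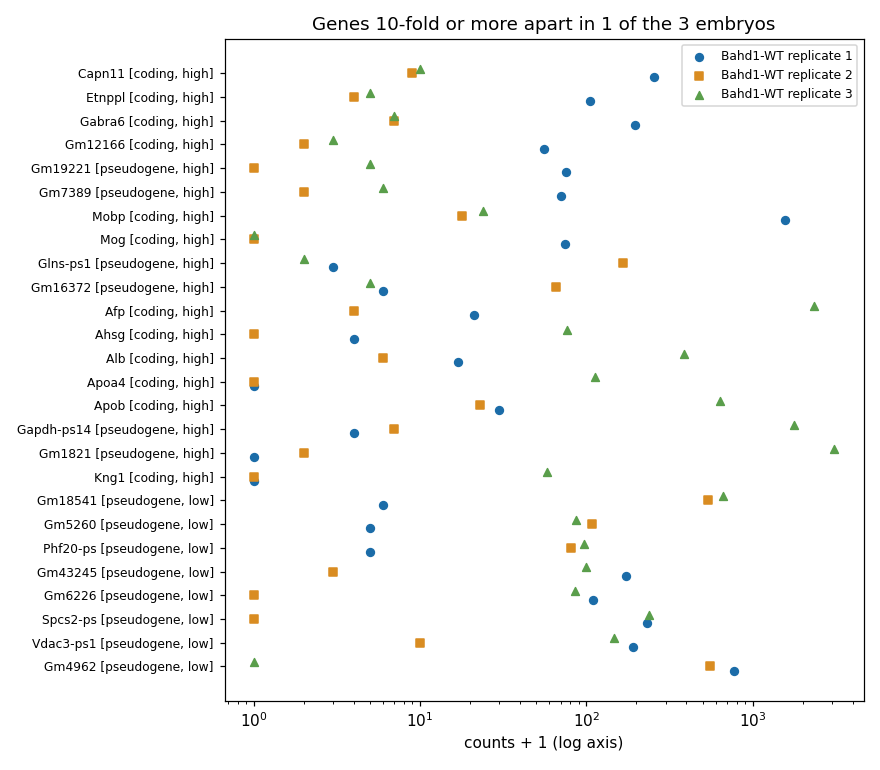
Counts + 1 (log axis) in each Bahd1-WT embryo for the 26 genes that were 10-fold or more apart in 1 embryo, labelled as coding genes or pseudogenes and as high or low in the odd embryo. The coding genes form 1 block high in replicate 1 and 1 block high in replicate 3, and the 8 genes low in 1 embryo are all pseudogenes.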

How the data were processed

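Polyadenylated RNA of 3 Bahd1-WT whole brains was analysed. The deposited values were raw counts, with 1 column for each embryo and no normalization. According to the study's methods and the processing notes, the authors trimmed reads with cutadapt (1.11), aligned them to GRCm38 (Ensembl annotation) and counted them over exons with featureCounts (1.4.6-p3) in a stranded mode. STAR (2.5.0a) and TopHat2 are both named, and which one made this table is not stated. Technical runs of an embryo were combined. The parameters given set no option for multiply mapping reads, which featureCounts leaves uncounted by default.

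CPM used the total counts of an embryo. FPKM divided CPM by the merged exon length in kilobases (GENCODE M21, GRCm38), with 53706 of the 53801 genes matched. Embryos were compared on CPM scaled with TMM factors, with a pseudocount of 0.1 on the log2 scale. The common dispersion came from edgeR (4.0.16, R 4.3.3) with an intercept alone, and DESeq2 (1.42.0) was an alternative. The GC correction took a lowess trend (span 0.3) on gene GC content off each embryo. The scripts were tested on simulated counts. No test between groups was made, and the knockout libraries were not used here.

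The text names the 20 genes of highest mean CPM and the 20 protein-coding genes of highest mean FPKM, the 15 largest and 10 smallest ranges among protein-coding genes at 10 CPM or more, members of 45 gene lists (549 genes, of which 3 symbols were not matched and 1 was ambiguous) and of 24 pairs, and mitochondrial, ribosomal RNA and sex chromosome genes. The members and lists were chosen with earlier results of these data known. Alternatives covered thresholds, scaling, length and each embryo left out. Those for GC content in the dispersion and the lists, and the rule for genes found in 1 embryo, were chosen after seeing the data. Nothing states that the embryos came from separate litters. Some genes of the lists are not reported here.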

Additional observations from a re-analysis of the deposited data

How the results depend on the processing

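The share of counts in the 100 most abundant genes, 15.9% in the mean, was 12.9% over nuclear protein-coding genes alone and 12.9% with hemoglobin and mitochondrial genes left out. The biological coefficient of variation, 0.246, was 0.178 after the GC correction and 0.167 to 0.298 with 1 embryo left out, lowest without replicate 1. The 1710 genes over a 2-fold range became 13627 with no filter beyond 1 count and 455 after the GC correction. With 1 embryo left out the count was 138 to 1401: 138 without replicate 1 and 798 without replicate 3. The lowest rank correlation, 0.967, was 0.930 over genes of 10 CPM or more and 0.967 to 0.990 with 1 embryo left out. Over 24 pairs, 21 of 120 values moved by more than the spread between embryos, all of them under another measure of length, and 2 pairs turned with it: Gad1 to Gad2 had a mean log2 ratio of 0.85 by the longest transcript and 0.17 with no length, and Map2 to Mapt had 0.056 by the longest transcript and 0.31 with no length. Of 21 list deviations of 0.5 or more, none changed sign under either other scaling or the GC correction, and 4 moved by more than the spread between embryos, all under the GC correction. Numbers of genes detected and of lists at 1 FPKM or more stayed within 1.5 times under every alternative run. No paired analysis was possible because only 1 group was described and no result came from a test. Levels under about 0.03 CPM were below what 3 counts show at this depth.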
